A study of Homo sapiens with 2 samples.

Results

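Gluconeogenesis is the synthesis of glucose from lactate, amino acids and glycerol, a function of the fasting liver and of the kidney cortex. Pyruvate carboxylase and the phosphoenolpyruvate carboxykinases turn pyruvate into phosphoenolpyruvate. Fructose-1,6-bisphosphatase bypasses phosphofructokinase, and glucose 6-phosphate is carried into the endoplasmic reticulum and hydrolysed there to free glucose. In hepatocytes the programme is induced by glucagon and glucocorticoids and repressed by insulin, mainly through CREB, FOXO1, HNF4A and the coactivator PGC-1alpha.

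The 8 genes described here were chosen by name from the deposited count table, and all 8 were found among its 19927 gene symbols. They are the enzymes PC, PCK1, PCK2, FBP1, G6PC1 and G6PC3, the glucose 6-phosphate transporter SLC37A4 and the coactivator PPARGC1A. Their rows were compared between 2 libraries of poly(A)-selected mRNA from Huh7, an established human hepatocellular carcinoma line. Both cultures were harvested after 48 h, one in medium with the solvent DMSO and the other in medium with homochlorcyclizine dihydrochloride, a histamine H1 receptor antagonist. The sources used here do not give the dose. Each group is 1 library, so no test between the conditions can be made and no p-value is given. Levels are in CPM, the count relative to the TMM-scaled library size, and ratios are homochlorcyclizine over DMSO. Where a range follows a ratio, it is the exact 95% interval, which covers counting error only.

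No member was called at least 2-fold higher or lower. PCK2, the mitochondrial carboxykinase and the most abundant member, was 1.38-fold higher with homochlorcyclizine. PC, SLC37A4, G6PC3, PCK1 and FBP1 were lower, with ratios from 0.563 to 0.872. G6PC1 had the same count in both libraries. PPARGC1A was 2.03-fold higher on few counts and below the level filter. In bulk RNA, fewer cells that express a gene and less of its RNA per cell cannot be told apart.

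The promoters of 3 members are shown because these genes carry the contrast in level described below. G6PC1 and G6PC3 encode enzymes of the same reaction, of which G6PC1 was scarce and G6PC3 abundant, and PCK2 was the abundant carboxykinase. The sequences are the 250 bases before a RefSeq start site on GRCh38.p14, plus strand, 5′ to 3′. They lie at chr17:42900549-42900798 for G6PC1, chr17:44070485-44070734 for G6PC3 and chr14:24094061-24094310 for PCK2. Where RefSeq lists several starts, the one with the most GENCODE v29 transcripts beginning near it was taken, and the one of lower coordinate in a tie, so bases of a longer transcript can lie in the window. Capitals mark the TATA box TATAAA, the short FOXO core AAACA and the ATF4 composite element TGATGNAA in G6PC1, the E-box CACGTG in G6PC3 and the GC box GGGCGG in PCK2, searched on both strands.
G6PC1: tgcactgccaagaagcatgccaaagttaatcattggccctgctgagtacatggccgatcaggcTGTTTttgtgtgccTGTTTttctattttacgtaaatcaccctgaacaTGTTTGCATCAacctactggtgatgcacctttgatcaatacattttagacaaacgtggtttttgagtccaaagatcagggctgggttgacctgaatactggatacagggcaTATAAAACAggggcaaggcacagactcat
G6PC3: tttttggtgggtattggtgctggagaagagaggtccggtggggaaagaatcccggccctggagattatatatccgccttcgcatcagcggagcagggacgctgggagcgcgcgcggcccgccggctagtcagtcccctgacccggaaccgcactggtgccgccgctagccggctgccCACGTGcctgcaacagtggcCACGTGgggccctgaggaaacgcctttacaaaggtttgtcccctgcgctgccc
PCK2: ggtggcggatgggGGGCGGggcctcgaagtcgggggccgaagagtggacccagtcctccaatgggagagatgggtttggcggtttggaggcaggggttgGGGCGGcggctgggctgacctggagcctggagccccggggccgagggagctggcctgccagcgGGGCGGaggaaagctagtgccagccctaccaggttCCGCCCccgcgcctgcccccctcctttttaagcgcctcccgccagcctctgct

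The G6PC1 window held 44.0% G and C, and 20.2% of 34788 promoter windows of the same length held less. Its TATA box began 29 bases before the start site, and 10.8% of all windows held that motif. The composite element matched once on the minus strand, 137 bases before the start and overlapping an AAACA match, and was present in 3.16% of all windows. The longer FOXO core GTAAACA, present in 2.98% of all windows, had no match in the G6PC1 window. AAACA matched 4 times, a short motif found in 40.4% of windows, and another of these matches overlaps the TATA box. The G6PC3 window held 64.8% G and C with 2 E-boxes and no TATA box, and 6.31% of windows held an E-box in any number. A second G6PC3 window, at chr17:44070661-44070910, had as many transcripts and held 66.8% G and C, the same number of E-boxes, 2 GC boxes and 1 AAACA. The PCK2 window held 71.6% G and C with 4 GC boxes and no match to the composite element, and 42.6% of windows held a GC box in any number. The marked motifs were chosen separately for each window. The CCAAT box CCAAT, left in lower case, matched once in each of the printed windows and was present in 32.0% of all windows. A match to these letters is a description of the window and not a measured binding site. Promoter windows were found for 7 of the 8 members, with PCK1 as the exception.

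The members fell into an abundant group and a scarce group. On the FPKM scale, which is per gene length, the order with DMSO was PCK2 (85.3), PC (42.2), G6PC3 (27.7), SLC37A4 (26.7), FBP1 (1.03), PCK1 (0.372), G6PC1 (0.267) and PPARGC1A (0.0990). The order with homochlorcyclizine was PCK2 (117), PC (34.0), G6PC3 (24.1), SLC37A4 (17.4), FBP1 (0.633), G6PC1 (0.25), PCK1 (0.209) and PPARGC1A (0.201). The first 5 places were the same in both libraries, and spread between cultures was not measured. Of the 8 members, 4 lay above 30 CPM in both libraries and the other 4 below 2 CPM in both. PCK2 stood above 94.3% of detected genes by FPKM with DMSO and above 96.4% with homochlorcyclizine, and G6PC1 above 17.9% and 17.4%.

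**Figure D1:**
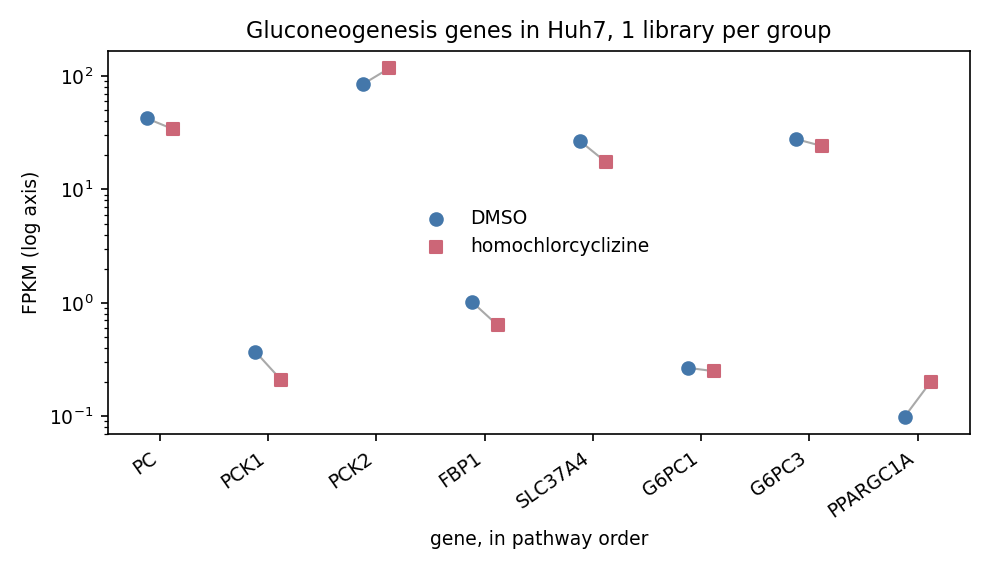
FPKM of each member on a log axis, with 1 point for the DMSO library and 1 square for the homochlorcyclizine library, and no error bars because each group is 1 library. PCK2, PC, G6PC3 and SLC37A4 lie between 17.4 and 117 FPKM, and FBP1, PCK1, G6PC1 and PPARGC1A lie between 0.0990 and 1.03 FPKM.

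The whole set was read against the background of all genes. The 12353 genes whose mean reached 1 CPM were kept, and a gene was called when its log2 ratio, taken with a prior count of 1, reached 2-fold and its interval excluded 1. By that rule 5.81% of them were higher and 5.10% lower, which are also the background shares for the gene lists below. Of the 7 members past that level, 0 were called in either direction. The log2 ratio was below 0 for 6 of the 7 (51.1% of all genes) and above 0 for 1 (48.9%). At 1.5-fold, 3 of 7 were lower (SLC37A4, FBP1 and PCK1) against 14.1% of all genes, and 0 of 7 were higher, also against 14.1%. The interval lay wholly below 1 for 5 members (40.0% of all genes) and wholly above 1 for PCK2 alone (37.8%). The median log2 ratio of the 7 members was -0.31, beside -0.01 over all genes past the level.

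**Figure D2:**
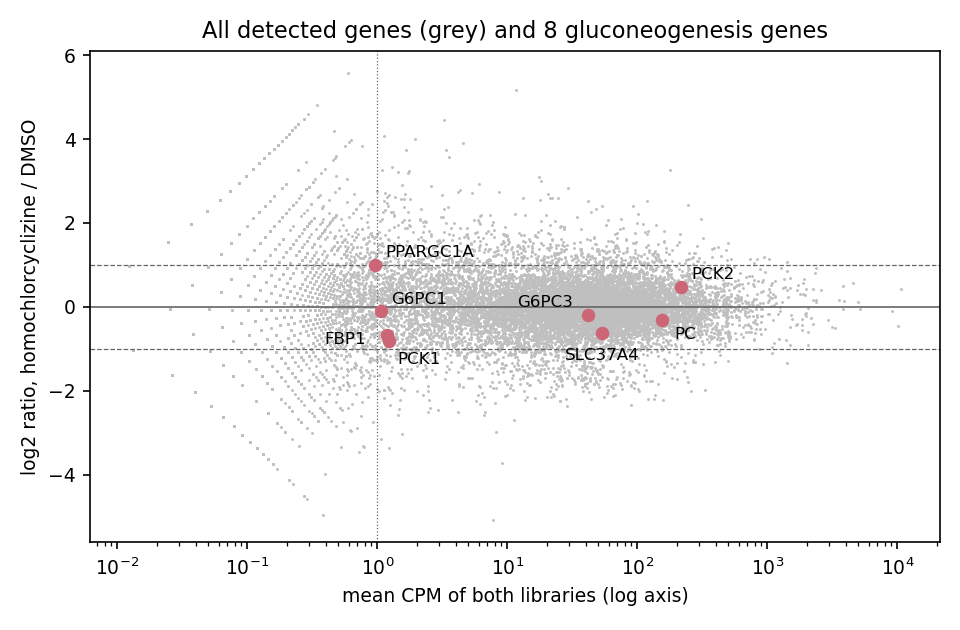
Log2 ratio (homochlorcyclizine over DMSO, prior count of 1) of each detected gene against its mean CPM on a log axis, with members as red points, dashed lines at 2-fold and a dotted line at the filter of 1 CPM. The members lie within the 2-fold lines, PPARGC1A just under the upper one and just left of the filter, and the abundant members within the dense part of the cloud.

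Pyruvate carboxylase is the biotin-dependent mitochondrial enzyme that makes oxaloacetate and so supplies both gluconeogenesis and the tricarboxylic acid cycle. PC (chromosome 11, 66848420 to 66958383) had 6535 counts with DMSO and 5630 with homochlorcyclizine, which is 171 and 138 CPM. The ratio was 0.809 (0.780 to 0.838), and 27.5% of genes past the level filter had a lower ratio. In the GENCODE v29 annotation 621 bases of its exons overlap LRFN4 on the other strand, a gene with 11 counts and 3.

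The other biotin carboxylases bear the same cofactor and act in other pathways. Of 6 measured subunits, 5 had a ratio below 1 (51.1% of all genes). The propionyl-CoA carboxylase subunit PCCB was at 24.4 against 44.6 CPM (0.547, 0.505 to 0.592). The methylcrotonyl-CoA carboxylase subunits MCCC1 and MCCC2 had ratios of 0.574 and 0.600. The exception was ACACA, the cytosolic enzyme of fatty acid synthesis, at 1.5, named after its values were seen. BTD, the biotinidase that recycles biotin, was 1.65-fold higher (1.57 to 1.72). The list of 9, which also holds biotin supply genes, had 0 members called and a median log2 ratio of -0.45.

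Phosphoenolpyruvate carboxykinase exists as a cytosolic isozyme, PCK1, the hormone-regulated form of liver and kidney, and a mitochondrial isozyme, PCK2. PCK2 (chromosome 14, 24094171 to 24104125) had 6899 counts with DMSO and 10143 with homochlorcyclizine, or 181 and 249 CPM. It was the one member past the level filter that was higher, at 1.38-fold (1.34 to 1.42), and 18.6% of filtered genes had a higher ratio. PCK1 (chromosome 20, 57561110 to 57568121) had 60 counts with DMSO and 36 with homochlorcyclizine, or 1.57 and 0.884 CPM. Its ratio was 0.563 (0.362 to 0.865), the lowest of the members, and its interval reaches past 2-fold lower.

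The isozymes differed between the libraries in opposite directions. Per length, PCK2 stood 229-fold above PCK1 with DMSO and 562-fold above it with homochlorcyclizine. PCK1 made up 0.434% of the summed FPKM of both isozymes with DMSO and 0.178% with homochlorcyclizine. The ratio of the PCK2 ratio to the PCK1 ratio was 2.45 (exact interval 1.59 to 3.82), which in these libraries is larger than counting error. Of 9 such gene pairs computed, this is 1 of 6 whose interval excluded 1.

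PCK2 is also a known target of ATF4, the transcription factor of the amino acid and stress response. ATF4 itself was at 539 CPM with DMSO and 892 CPM with homochlorcyclizine, 1.66-fold higher (1.63 to 1.68). All 23 measured ATF4 targets listed beside PCK2 had a ratio above 1 (48.9% of all genes) and 11 were called at least 2-fold higher (5.81%). This direction was already known from earlier analysis of these libraries when the list was made. The median log2 ratio of the list was 0.87, beside -0.01 over all genes. PCK2 lay low in that range, with 16 of the 23 above its ratio and 7 below it. The 3 genes whose ratio fell inside the counting interval of PCK2 were PSAT1 (1.38), SHMT2 (1.36) and MTHFD2 (1.39), enzymes of serine and mitochondrial folate metabolism, named after their values were seen. At the upper end ATF3, VLDLR, CHAC1 and DDIT4 had log2 ratios from 1.62 to 2.33.

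Fructose-1,6-bisphosphatase removes a phosphate from fructose 1,6-bisphosphate. FBP1, the liver form (chromosome 9, 94603133 to 94640263), had 56 counts with DMSO and 37 with homochlorcyclizine, which is 1.47 and 0.909 CPM. The ratio was 0.620 with a wide interval (0.398 to 0.956). FBP2, the muscle form, had 62 counts and 64, a ratio of 0.969 (0.673 to 1.40). Per length FBP2 was 1.19-fold above FBP1 with DMSO and 1.85-fold above it with homochlorcyclizine. The ratio of their ratios was 1.56 with an interval of 0.877 to 2.79, so a different response of the isozymes was not detectable at this depth. FBP1 shares 283 exonic bases with an antisense RNA, PCAT7, in the same annotation.

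Glucose 6-phosphate enters the endoplasmic reticulum through SLC37A4, which exchanges it for phosphate. SLC37A4 (chromosome 11, 119024112 to 119030877) had 2473 counts with DMSO and 1726 with homochlorcyclizine, or 64.7 and 42.4 CPM. The ratio was 0.655 (0.616 to 0.697), the most precisely measured of the 3 lower ratios past 1.5-fold, and 13.1% of filtered genes had a lower one. Its exons overlap those of TRAPPC4 on the other strand by 544 bases. TRAPPC4 had 1523 counts and 1316, and since the strand setting of the counting is not given, reads in the shared part cannot be assigned.

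Its abundant paralogs SLC37A3 and SLC37A1 had ratios above 1. SLC37A3 was at 47.1 against 40.3 CPM (1.17, 1.09 to 1.25) and SLC37A1 at 33.8 against 31.6 CPM (1.07, 0.989 to 1.16). Set against SLC37A4, the ratio of ratios was 1.78 (1.62 to 1.95) for SLC37A3 and 1.63 (1.48 to 1.80) for SLC37A1. SLC37A2 was scarce, with 39 counts against 66 (0.555, 0.363 to 0.836). Of the FPKM summed over SLC37A4 and SLC37A3, SLC37A4 made up 67.5% with DMSO and 53.8% with homochlorcyclizine.

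Glucose-6-phosphatase releases free glucose. G6PC1, the catalytic subunit of liver and kidney (chromosome 17, 42900799 to 42914438), had 42 counts with DMSO and 42 with homochlorcyclizine, which is 1.10 and 1.03 CPM. The ratio was 0.939 (0.597 to 1.48), and differences inside that interval were not detectable at this depth. G6PC3, the widely expressed form (chromosome 17, 44070673 to 44076344), had 1687 counts with DMSO and 1568 with homochlorcyclizine, or 44.1 and 38.5 CPM. Its ratio of 0.872 (0.814 to 0.935) was the nearest to 1 among the abundant members.

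Per length, G6PC3 stood 104-fold above G6PC1 with DMSO and 96.5-fold above it with homochlorcyclizine. The ratio of their ratios was 0.929 (0.588 to 1.47). The pancreatic islet form G6PC2 had 2 counts and 0, at or under the 3 counts that a count of 0 allows (0.0785 CPM with DMSO and 0.0737 CPM with homochlorcyclizine). G6PC3 and SLC37A4 stood near each other per length with DMSO, where G6PC3 was 1.04-fold above the transporter, and 1.38-fold apart with homochlorcyclizine.

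PPARGC1A encodes PGC-1alpha, the coactivator that fasting hormones induce in liver and that acts with HNF4A and FOXO1 on the promoters of PCK1 and G6PC1. It spans chromosome 4, 23792021 to 24472905. The gene had 24 counts with DMSO and 52 with homochlorcyclizine, or 0.628 and 1.28 CPM. The ratio was 2.03 (1.23 to 3.45), the log2 ratio 0.995 with the prior count, and the mean of 0.953 CPM left it just outside the filter of 1 CPM. G6PC1, with a mean of 1.07 CPM, was the member just inside that filter. Without the filter 7.49% of all detected genes were called higher. PPARGC1A was not among them only because the prior count brings its ratio of 2.03 just under 2-fold. Its log2 ratio was 1.02 with a prior count of 0.25 or with upper quartile scaling, and 0.90 with a prior count of 5.

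The related coactivators were more abundant and lower. PPARGC1B was at 15.2 against 24.9 CPM (0.610, 0.550 to 0.675) and PPRC1 at 53.1 against 69.8 CPM (0.761, 0.718 to 0.805). Of the FPKM summed over PPARGC1A and PPARGC1B, PPARGC1A made up 2.67% with DMSO and 8.39% with homochlorcyclizine, and the ratio of their ratios was 3.34 (1.99 to 5.72). Of 14 measured partners and targets of PGC-1alpha in mitochondrial biogenesis, 0 were called and 11 were below a ratio of 1 (51.1% of all genes). The mitochondrial transcription factors TFAM (0.676, 0.645 to 0.709) and TFB2M (0.678) and the ATP synthase subunit ATP5F1B (0.640) were the lowest after PPARGC1B.

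**Figure D3:**
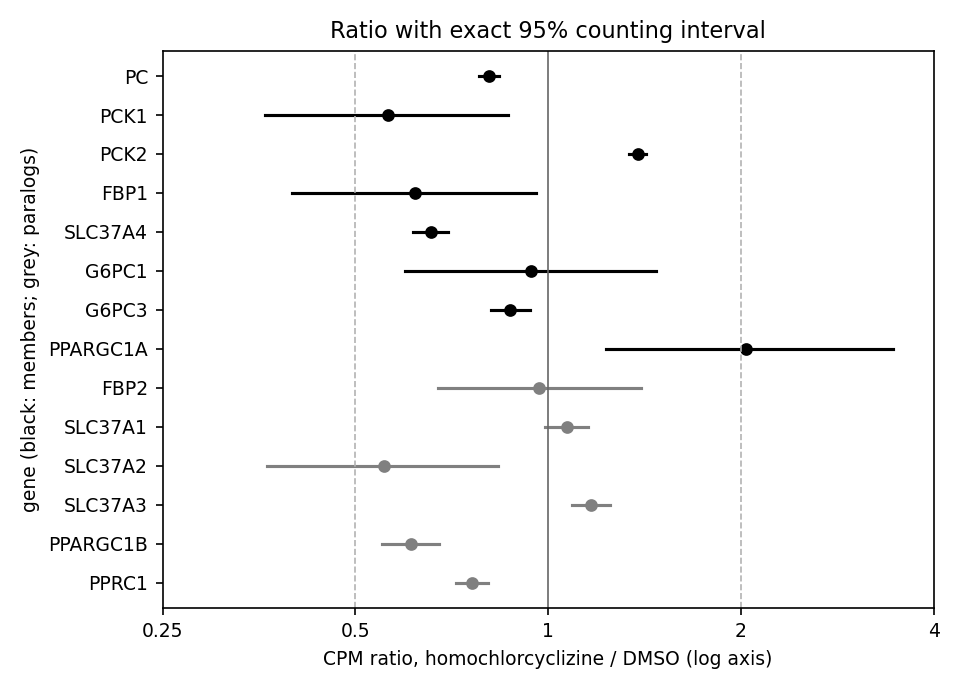
CPM ratio of homochlorcyclizine over DMSO on a log axis for the 8 members (black) and 6 paralogs (grey), where bars are exact 95% counting intervals and dashed lines mark 2-fold. PCK2 and PPARGC1A lie right of 1, the interval of G6PC1 spans 1, and the intervals of PC, PCK1, FBP1, SLC37A4 and G6PC3 lie left of it.

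Summed over the 8 members the counts were 17776 with DMSO and 19234 with homochlorcyclizine, a ratio of 1.02 (0.995 to 1.04). The summed FPKM was 184 with DMSO and 194 with homochlorcyclizine, and its make-up differed between the libraries. PCK2 took 46.4% of the summed FPKM with DMSO and 60.4% with homochlorcyclizine, while PC went from 23.0% to 17.5%, SLC37A4 from 14.5% to 8.99% and G6PC3 from 15.1% to 12.4%. The ratio of the PCK2 ratio to the PC ratio was 1.71 (1.63 to 1.79), so these consecutive enzymes of the route from pyruvate differed from each other beyond counting error.

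Of 28 measured transcription factors and cofactors of the programme, 6 were called at least 2-fold higher (5.81% of all genes) and 1 lower (5.10%). A ratio over 1 was found for 20 (48.9% of all genes), and the list's median was 0.39 on the log2 scale. FOXO1, which insulin keeps out of the nucleus and which acts on the G6PC1 and PCK1 promoters, was at 20.0 against 9.92 CPM (2.02, 1.79 to 2.29), and FOXO4 at 13.2 against 4.68 CPM (2.82, 2.37 to 3.35). With the gene length trend removed the log2 ratio of FOXO1 was 0.83, under the 2-fold limit. The other genes called higher were FOXO3, NR4A1 (log2 ratio 1.52), NR0B2, which represses HNF4A, and NR1D1, a clock repressor of G6PC1. NR4A2 was called lower (0.411), and it and FOXO3 were named after their values were seen. The CREB coactivator CRTC2 was at 48.8 against 36.1 CPM (1.35), HNF4A at 325 against 342 CPM (0.949) and KLF15, an inducer of amino acid catabolism, at 3.68 against 4.37 CPM (0.843, 0.672 to 1.06). PCK1 and G6PC1, targets of both activators and repressors among these factors, were not among the higher genes. A link between the factors and these targets was not tested.

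Among hormone signalling genes, the insulin receptor and its substrate IRS2 were called higher. INSR was at 115 against 55.5 CPM (2.08, 1.97 to 2.19) and IRS2 at 14.7 against 4.42 CPM (3.32, 2.79 to 3.96). They were the 2 called higher of 23 measured (5.81% of all genes), with 0 lower (5.10%) and a median of 0.17. INSR came to 0.96 on the log2 scale, and was not called, with the length trend removed. The more abundant substrate IRS1 was at 93.0 against 77.7 CPM (1.20, 1.14 to 1.26). IRS1 was not called and was named after its values were seen. PIK3R1, the regulatory subunit of PI3-kinase, was at 172 against 108 CPM (1.59). SIK1, a kinase that restrains CRTC2, was at 2.63 against 5.13 CPM (0.512, 0.401 to 0.652). The glucagon receptor GCGR had 0 counts in both libraries and was named after its values were seen.

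Among 13 measured fasting and insulin-repressed genes beside the members, 6 were called higher (5.81% of all genes) and 1 lower (5.10%). The list's median log2 ratio was 0.54, or 0.98 with no filter on level. Of the 6, TRIB3 is also among the ATF4 targets called higher, and IRS2 among the hormone signalling genes called higher. IGFBP1, IRS2, ADM2 and CPT1A had the largest log2 ratios, from 1.57 to 2.84. Insulin is known to repress IGFBP1 and IRS2 as it does PCK1 and G6PC1, and the ratios of PCK1 and G6PC1 were 0.563 and 0.939. PDK4, another such gene, had 43 counts against 20 (2.02, 1.16 to 3.62), like PPARGC1A below the level filter and named after its values were seen.

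Carbon reaches the pathway through lactate, alanine, glycerol and the malate and aspartate shuttles. Of 21 measured genes of this list, 1 was called higher and 2 lower, with a median of -0.02. The alanine and glutamine transporter SLC38A2 was at 612 against 265 CPM (2.31, 2.26 to 2.36). The mitochondrial aspartate aminotransferase GOT2, which acts beside PC on oxaloacetate, was at 69.4 against 139 CPM (0.499, 0.477 to 0.523) and was not called under upper quartile scaling, where its log2 ratio was -0.97. SLC25A12, a scarce aspartate carrier, had 27 counts against 66 (0.384, 0.236 to 0.609). The abundant aspartate carrier SLC25A13 was at 110 against 102 CPM (1.08, 1.03 to 1.13) and was named after its values were seen. The dicarboxylate carrier SLC25A10, which moves malate, had a ratio of 0.542 (0.500 to 0.587). LDHA, which interconverts lactate and pyruvate, was at 965 against 1083 CPM (0.891).

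The reversible steps that gluconeogenesis shares with glycolysis had a median of -0.30 over 13 genes, beside -0.31 for the members, and the former was -0.17 with a filter of 5 CPM. Of the 13 genes, 1 was called higher and 8 were below a ratio of 1 (51.1% of all genes). The gene called higher was the minor enolase ENO2, at 31.2 against 3.64 CPM (8.58, 7.19 to 10.3). The abundant enolase ENO1 was at 2043 against 2085 CPM (0.980) and was named after its values were seen. ALDOC was at 128 against 78.9 CPM (1.63) and MDH1, the cytosolic malate dehydrogenase, at 167 against 235 CPM (0.712). The list of enzymes that oppose the pathway or divert pyruvate also holds inhibitors of such enzymes, GCKR and the pyruvate dehydrogenase kinases. Of its 16 measured genes, 2 were called higher, 0 lower, and the median was -0.01. These 2 were the hexokinase HKDC1, with 115 counts against 16 (6.75, 3.98 to 12.2), and PFKFB4, which sets the level of the FBP1 inhibitor fructose 2,6-bisphosphate, at 137 against 47.6 CPM (2.88, 2.73 to 3.03). PDK1, which inhibits pyruvate dehydrogenase, was at 66.3 against 37.3 CPM (1.78). The pyruvate kinase gene PKLR had 75 counts against 103 (0.684, 0.501 to 0.929), and PKM was at 1882 against 2075 CPM (0.907).

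Glucose 6-phosphate, the substrate of SLC37A4 and G6PC1, is also used by glycogen synthesis and the pentose phosphate pathway. Of 11 measured glucose-sensing and hexose phosphate genes, 1 was called higher and 0 lower, and the median was 0.47. H6PD, which uses glucose 6-phosphate inside the endoplasmic reticulum beside G6PC1, was at 81.0 against 49.1 CPM (1.65), opposite to the transporter SLC37A4. MLXIPL, which encodes the glucose-responsive factor ChREBP, a known activator of G6PC1, was at 59.2 against 32.5 CPM (1.82, 1.70 to 1.95), and MLXIP had a ratio of 1.68. Of 14 glycogen and glucose release genes 0 were called and the median was 0.13. The glycogen phosphatase subunits PPP1R3B and PPP1R3C were 1.72-fold and 1.42-fold higher, the branching enzyme GBE1 1.27-fold and the glucose transporter SLC2A1 1.72-fold (1.64 to 1.81). The liver glucose transporter SLC2A2, which releases the product, was scarce at 28 counts against 32 (0.821, 0.476 to 1.41).

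**Figure D4:**
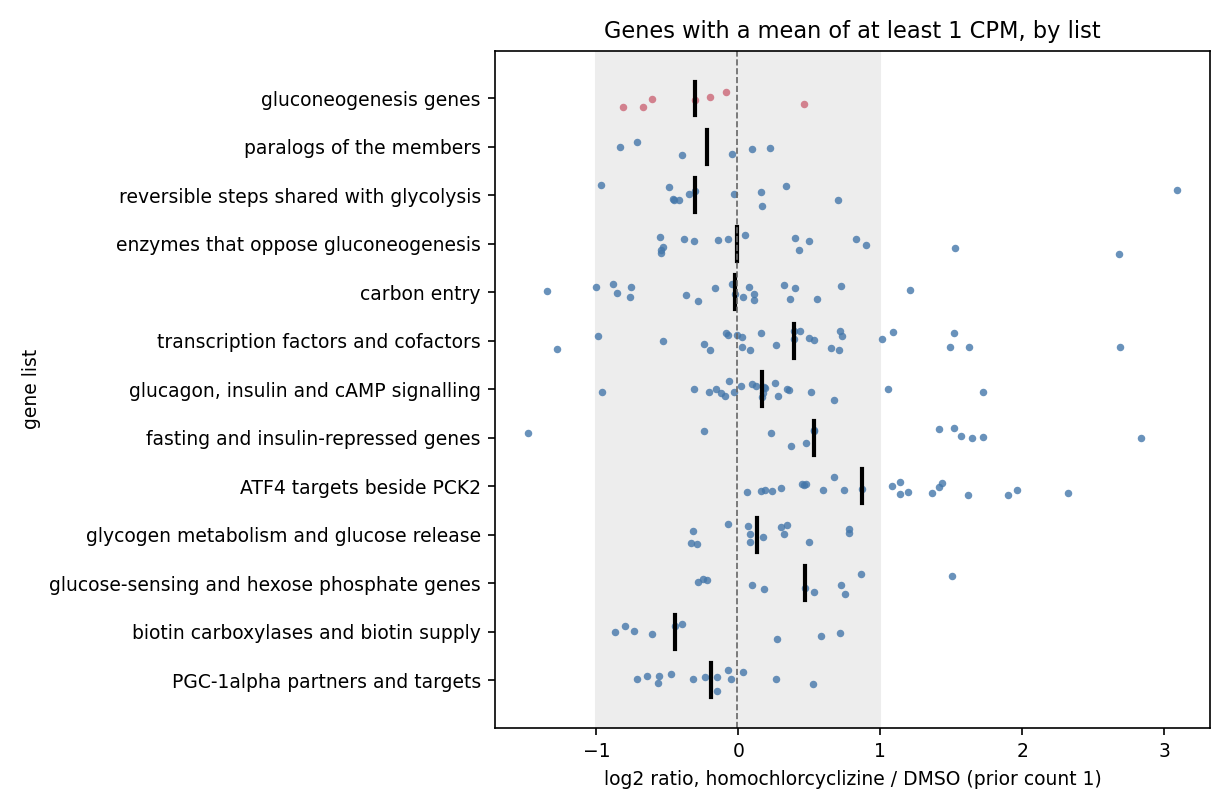
Log2 ratio (homochlorcyclizine over DMSO, prior count of 1) of each gene with a mean of at least 1 CPM in the members (red) and the 12 other gene lists (blue), with black bars at list medians, a grey band within 2-fold and a dashed line at the median of all filtered genes. The members' median is -0.31, that of the ATF4 list 0.87 and that of the fasting and insulin-repressed list 0.54.

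The libraries held 38133894 counts with DMSO and 40791119 with homochlorcyclizine. All 10 hepatocyte markers had counts in both, with a sum of 24373 CPM and 22630 CPM. Of 8 enterocyte markers 7 had counts in each library and the list summed to 1011 and 1038 CPM, mostly CDH17 and VIL1. Of its 6 markers past the level filter 5 had a ratio below 1 (51.1% of all genes), and LCT was called lower with 304 counts against 1266. Leukocyte markers, mostly LYZ, summed to 464 and 547 CPM, fibroblast markers to 33.1 and 38.1 CPM and endothelial markers to 12.4 and 6.14 CPM. Within the fibroblast list COL3A1 had 5 counts against 43 and ACTA2 8 against 50. These markers were named after their values were seen. Kidney markers, mostly of the proximal tubule, the other gluconeogenic epithelium, summed to 16.5 and 15.4 CPM. Of these, 3 of 8 were at 0 in both libraries, among them UMOD, a marker of another nephron segment. The part of these levels in the members' ratios was not tested.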

How the data were processed

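RNA-seq of 1 DMSO and 1 homochlorcyclizine culture of Huh7 was used. The authors deposited raw counts per gene in one table and FPKM per library, which gave the same ratios and served to compare genes per length. The build was hg38, per the submitters' processing notes, and the sources used here name no aligner, counter, strand setting or annotation. Library sizes were TMM-scaled (edgeR 4.0.16, R 4.3.3). Clopper-Pearson intervals, exact conditional odds ratio intervals for gene pairs and log2 ratios with a prior count of 1 were computed with scipy 1.17.1. The calling rule was tested on simulated data.

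The members, 12 gene lists and 6 marker lists were chosen with earlier results of these data known. Named genes are the members, up to 4 genes per list with the largest absolute log2 ratio past the filter, and 17 genes fixed whatever their values. Some of these genes are not reported here. Of 205 listed genes, 8 were in more than 1 list. Alternatives were total count, upper quartile and DESeq2 1.42.0 scaling, prior counts of 0.25 and 5, no filter or 5 CPM, FPKM ratios, removal of a gene length trend and a 1.5-fold threshold. Gene coordinates and promoters are RefSeq GRCh38.p14, and exon overlaps GENCODE v29 on GRCh38.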

Additional observations from a re-analysis of the deposited data

How the results depend on the processing

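Each member kept the sign of its log2 ratio under every one of the 10 alternatives in which it had a value. The ranges were 0.46 to 0.52 for PCK2, -0.31 to -0.28 for PC, -0.20 to -0.10 for G6PC3, -0.62 to -0.56 for SLC37A4, -0.70 to -0.56 for FBP1, -0.83 to -0.75 for PCK1, -0.10 to -0.06 for G6PC1 and 0.90 to 1.02 for PPARGC1A. With the length trend removed PCK2 reached 0.52, beyond its counting interval. The count of members called lower was 3 with a threshold of 1.5-fold in place of 0. Over all genes the threshold of 1.5-fold gave 1736 higher and 1736 lower, and no filter on level gave 1197 and 946, beside 718 and 630. Among the lists, the fasting and insulin-repressed median was 0.98 with no filter and 1.41 at 5 CPM, that of the paralogs -0.39 with no filter, and that of the reversible steps -0.17 at 5 CPM and -0.16 with the length trend removed. GOT2 was not called under upper quartile scaling (-0.97), DESeq2 scaling or with the length trend removed (-0.96). Removing that trend also took FOXO1 (0.83) and INSR (0.96) under 2-fold and SIK1 past it, to lower, and HKDC1 and SLC25A12 fell below the 5 CPM filter. Of 478 values under the alternatives, 34 moved and 0 changed direction where called. Part of these values could not move, since a change of filter leaves each member's log2 ratio as it is and a change of threshold leaves each median. The 5 CPM filter left 4 members. No paired analysis was possible because each group is 1 library. Depth limits FBP1, PCK1, G6PC1 and PPARGC1A, whose intervals span more than 2-fold from end to end, and spread between cultures was not measured.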
